A study of Sus scrofa with 6 samples.

Results

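NMDA receptor subunit genes were followed in prefrontal cortex RNA from 6 pigs (Sus scrofa) aged 3 months. The members were chosen by name, GRIN1, GRIN2A, GRIN2B, GRIN2C, GRIN2D, GRIN3A and GRIN3B, and 6 of these 7 were among the 17201 genes counted. GRIN1 is not analysed here. Of the 6, 5 had enough counts to enter the test of all genes, and GRIN3B did not. The VPA group was made up of animals 391, 392 and 393, whose labels give valproic acid at 75 mg/kg and whose exposure fell in early gestation. The control group was made up of animals 401, 402 and 408, labelled as given no treatment. Valproic acid is an anticonvulsant that also inhibits histone deacetylases, and the series presents the exposed pigs as a model of autism. The sources used here give no route, days of dosing, litter or sex, and the labels do not say whether the controls received a vehicle.

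NMDA receptors are glutamate-gated ion channels built from several subunits, and they let calcium into the postsynaptic cell when glutamate arrives while the membrane is depolarised. Every functional receptor carries the GRIN1 product, which binds the co-agonist glycine or D-serine. GRIN2 products bind glutamate and set how long the channel stays open, and GRIN3 products bind glycine and lower calcium entry. In rodent forebrain GRIN2B dominates before birth, and GRIN2A increases after birth as synapses mature.

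Total counts ran from 16285517 to 17989032 per library, with 16127 to 16236 genes detected. Levels are given as CPM, counts relative to library size after TMM scaling, and 1 CPM stood for 16 to 18 reads. Where genes are compared with each other the authors' FPKM is used, which also divides by gene length. Cortical markers were present in all libraries: the 11 glutamatergic neuron markers summed to 6350 to 6561 CPM in VPA and 6822 to 7130 CPM in controls. VPA 393 stood apart in 1 marker list, that of striatal projection neurons, neurons of a region beneath the cortex, with a sum of 562 CPM against 189 and 208 CPM in the other VPA libraries and 153 to 173 CPM in controls. EIF1AY, a Y-linked gene, had 0 counts in VPA 392 and 2 counts in control 401, and 450 to 548 counts in the other libraries, so each group held 1 animal with hardly any.

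GRIN2A, the subunit gene that increases as forebrain synapses mature, had lower values in VPA cortex than in control cortex. It measured 61.2, 58.4 and 64.6 CPM in VPA 391, 392 and 393, against 78.2, 73.2 and 78.0 CPM in controls 401, 402 and 408. All 3 VPA animals lay below all 3 controls, and the animals of a group differed by little, with a coefficient of variation of 5.05% in VPA and 3.70% in controls. Group means were 61.4 ± 3.11 CPM in VPA and 76.5 ± 2.83 CPM in controls (SD, n = 3 each). The log2 fold change was -0.32 ± 0.063 (SE), a level 19.6% lower, with a 95% interval from -0.45 to -0.18. In edgeR's quasi-likelihood test this gave an adjusted p of 0.062 (Benjamini-Hochberg over 14373 genes), which misses the threshold of 0.05, and it was the 100th lowest p of all genes tested. DESeq2 gave GRIN2A an adjusted p of 0.0065 and edgeR without the filter on low counts one of 0.041, both past the threshold. The same DESeq2 run called 3.64% of the 12198 genes to which it gave an adjusted p, and the unfiltered edgeR run 0.820% of 17201.

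Of the 5 subunit genes tested, 0 passed edgeR's adjusted p of 0.05, where 0.362% of all genes tested did, 52 of 14373. At an unadjusted p under 0.05 in edgeR there was 1, GRIN2A, where 16.2% of all genes reached that level. DESeq2 and unfiltered edgeR each called 1, again GRIN2A, and limma-voom and limma on FPKM called 0. GRIN2A was also the only one of the 5 with groups that did not overlap, a separation seen in 21.4% of all genes tested. The count of 1 in 5 is near these last background shares.

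**Figure D1:**
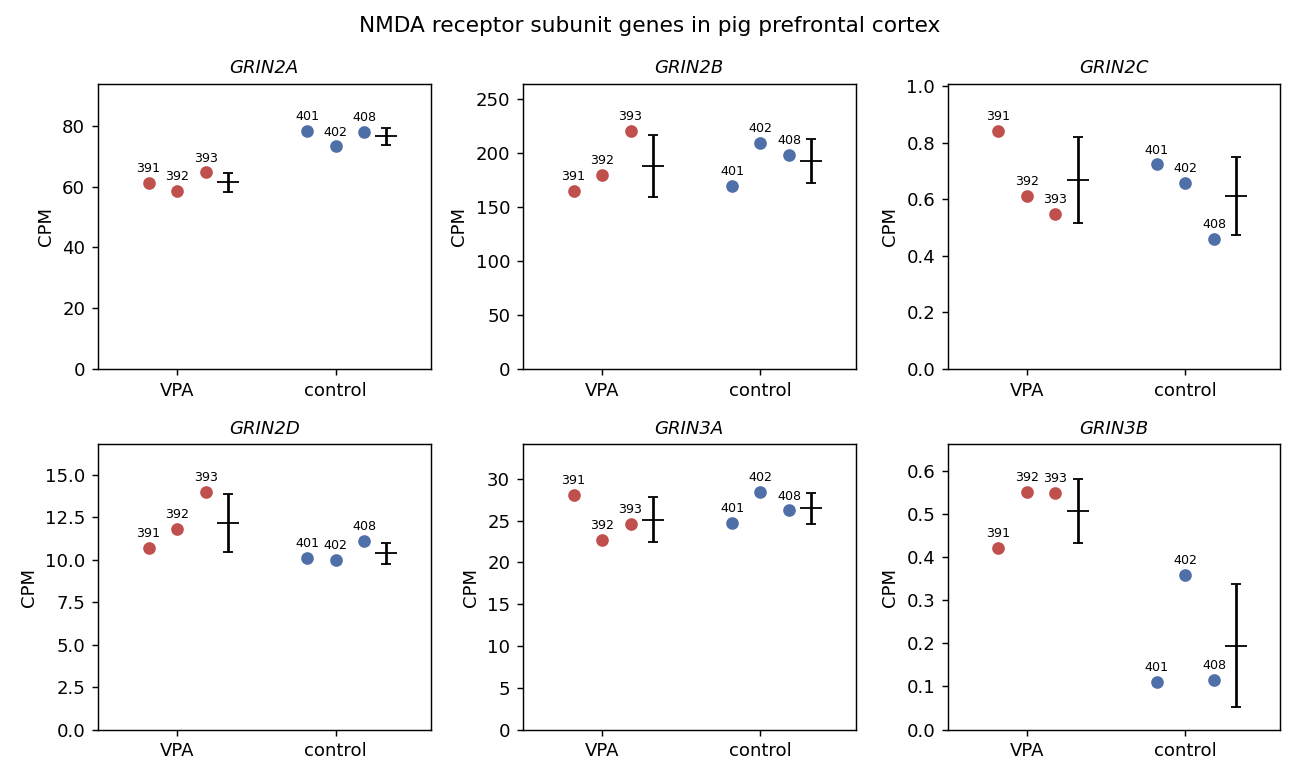
CPM (vertical axis, from 0) of the 6 counted NMDA receptor subunit genes, with VPA animals in red left of controls in blue, each point 1 animal with its number, and the bar beside each group the mean with SD. GRIN2A separates the groups, at 58.4 to 64.6 CPM in VPA and 73.2 to 78.2 CPM in controls, whereas GRIN2B, GRIN2C, GRIN2D and GRIN3A overlap, and GRIN3B rests on 2 to 10 reads per library.

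GRIN2B, whose product gives long-lasting currents and prevails early in life, showed no such shift. Its values were 165, 180 and 221 CPM in VPA 391, 392 and 393, against 170, 210 and 199 CPM in controls 401, 402 and 408. The groups overlapped throughout, with means of 189 ± 28.7 CPM in VPA and 193 ± 20.5 CPM in controls (SD, n = 3 each). The log2 fold change was -0.03 ± 0.10 (SE, edgeR adjusted p = 0.92), and its 95% interval ran from -0.26 to 0.20, that is from a 0.835-fold to a 1.15-fold level. VPA 393, the library with the high striatal marker sum, held the highest GRIN2B value of all 6. Without it the GRIN2B log2 fold change was -0.16 (adjusted p = 0.41), and the part of striatal tissue in that value was not tested.

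GRIN2D, a subunit gene expressed in interneurons in rodents, had 10.7, 11.8 and 14.0 CPM in VPA 391, 392 and 393. Controls 401, 402 and 408 had 10.1, 9.98 and 11.1 CPM. VPA 393 was again the highest library, and VPA 391 lay within the control range. Means were 12.2 ± 1.69 CPM in VPA and 10.4 ± 0.620 CPM in controls (SD, n = 3 each). The log2 fold change was 0.23 ± 0.13 (SE, edgeR adjusted p = 0.42), with a 95% interval from -0.06 to 0.51. Without VPA 393 it was 0.11 (adjusted p = 0.73). The 10 interneuron markers summed to 993 to 1020 CPM in VPA and 998 to 1012 CPM in controls. Of them edgeR called 0, where it called 0.362% of all genes tested. At an unadjusted p under 0.05 in edgeR there was 1, where 16.2% of all genes reached that level. DESeq2 called 1, lower, where it called 3.64% of all genes to which it gave an adjusted p.

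GRIN2C, known mainly from cerebellum and astrocytes, was near the limit of detection in this cortex. It had 14, 10 and 10 counts in the VPA libraries against 13, 11 and 8 counts in the controls. At 0.667 ± 0.153 CPM in VPA and 0.613 ± 0.138 CPM in controls (SD, n = 3 each) the groups overlapped. The 95% interval of its log2 fold change ran from -0.81 to 1.04, that is from a 0.572-fold to a 2.06-fold level. Levels between these bounds cannot be told apart with so few counts and 3 animals per group.

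Of the GRIN3 genes, GRIN3A was well expressed and GRIN3B hardly. GRIN3A, which in rodents is highest in young forebrain, had 28.1, 22.7 and 24.6 CPM in VPA 391, 392 and 393 and 24.7, 28.4 and 26.2 CPM in controls 401, 402 and 408. The lowest value was in VPA 392 and the highest in control 402, with VPA 391 close behind it. The log2 fold change was -0.07 ± 0.098 (SE, edgeR adjusted p = 0.77), with a 95% interval from -0.29 to 0.14. GRIN3B, known in rodents chiefly from motor neurons, had 7, 9 and 10 counts in the VPA libraries and 2, 6 and 2 counts in the controls, 26 against 10 in all. The GRIN3B groups did not overlap, but the gene failed the filter on low counts. In the edgeR run without that filter its log2 fold change was 1.36 with an adjusted p of 0.35.

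**Figure D2:**
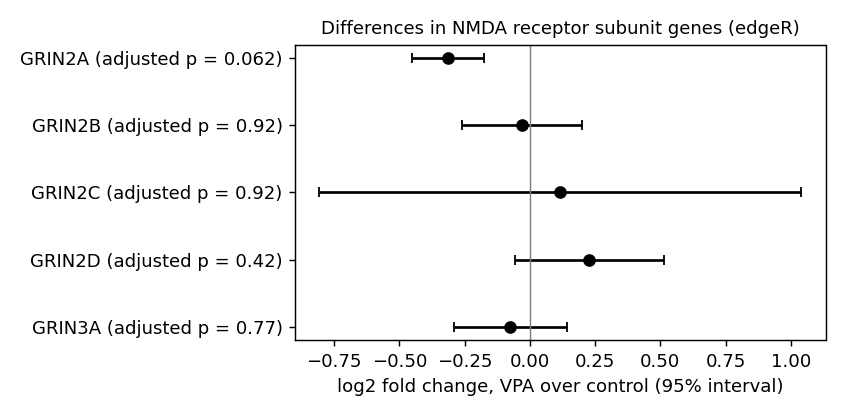
Log2 fold change of VPA over control (horizontal axis) for the 5 subunit genes tested, with points for the edgeR estimate, bars for the 95% interval and adjusted p beside each name. The GRIN2A interval, from -0.45 to -0.18, lies below 0, while those of the other genes include 0. The intervals are not adjusted, and 16.2% of all genes tested had an unadjusted edgeR p under 0.05.

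Per unit of gene length, GRIN2A and GRIN2B were the leading pair among the 6 counted genes, without GRIN1, followed by GRIN3A and GRIN2D. GRIN2A measured 7.26 ± 0.406 FPKM in VPA and 8.96 ± 0.353 FPKM in controls, and GRIN2B measured 6.85 ± 1.10 FPKM in VPA and 6.93 ± 0.709 FPKM in controls (SD, n = 3 each). GRIN3A lay at 3.26 ± 0.338 FPKM in VPA and 3.40 ± 0.228 FPKM in controls, and GRIN2D at 2.12 ± 0.312 FPKM in VPA and 1.80 ± 0.104 FPKM in controls. In each of the 6 libraries GRIN3A came next after the leading pair, and GRIN2D after GRIN3A. GRIN2C and GRIN3B shared the bottom and swapped places among the libraries, at 0.106 to 0.196 FPKM for GRIN2C and 0.0340 to 0.170 FPKM for GRIN3B.

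The order of the leading pair depends on the length that the authors' FPKM assigns. That length was 27681 bases for GRIN2B and 8496 bases for GRIN2A, recovered from count and FPKM. In CPM, with no division by length, GRIN2B was above GRIN2A in all 6 libraries. In FPKM GRIN2A was above GRIN2B in 5 of 6, the exception being VPA 393 with 7.70 FPKM for GRIN2A and 8.07 FPKM for GRIN2B. In VPA animals the FPKM ranges of GRIN2A and GRIN2B overlapped. In controls they did not, with 8.55 to 9.21 FPKM for GRIN2A and 6.14 to 7.52 FPKM for GRIN2B.

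The GRIN2A to GRIN2B ratio, often used as an index of subunit maturation, was on average lower in VPA cortex, with overlapping groups. In FPKM it was 1.21, 1.06 and 0.955 in VPA 391, 392 and 393, against 1.50, 1.14 and 1.28 in controls 401, 402 and 408. VPA 391 lay above control 402, and VPA 393 held the lowest value. The mean ratio was 1.07 ± 0.128 in VPA and 1.31 ± 0.182 in controls (SD, n = 3 each). As a ratio of counts it was 0.329 ± 0.0393 in VPA and 0.401 ± 0.0559 in controls. The difference of the log2 ratio was -0.28, the same in either unit, and the two-sided exact permutation test over the 6 libraries gave p = 0.2, where 0.1 is the smallest p that 3 against 3 allows. The spread of the log2 ratio within groups (SD 0.17 in VPA and 0.20 in controls) went with GRIN2B, which varied more than GRIN2A, with a coefficient of variation of 15.2% in VPA and 10.6% in controls.

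Taken as shares of the summed FPKM of the 6 counted subunit genes, GRIN2A made up 38.0%, 36.8% and 35.4% in VPA 391, 392 and 393, against 44.9%, 39.4% and 42.1% in controls 401, 402 and 408. The groups did not overlap in this share. GRIN2D made up 9.78% to 11.3% in VPA and 7.93% to 8.85% in controls, also without overlap, although its CPM did overlap. The GRIN3B shares did not overlap either, at 0.676% to 0.900% in VPA and 0.160% to 0.501% in controls, on 2 to 10 reads per library. GRIN2B held 34.5% ± 2.86 in VPA and 32.5% ± 2.37 in controls, and GRIN3A 16.5% ± 2.28 in VPA and 16.0% ± 0.718 in controls (SD, n = 3 each). Shares are tied to each other, so a smaller GRIN2A share raises the rest, and they carry no test and no background over all genes. The summed FPKM was 19.8 ± 1.69 in VPA and 21.3 ± 0.678 in controls, with VPA 393 at 21.75 FPKM, just above the highest control at 21.70 FPKM, and the other VPA libraries at 18.9 and 18.8 FPKM below the lowest control at 20.5 FPKM.

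**Figure D3:**
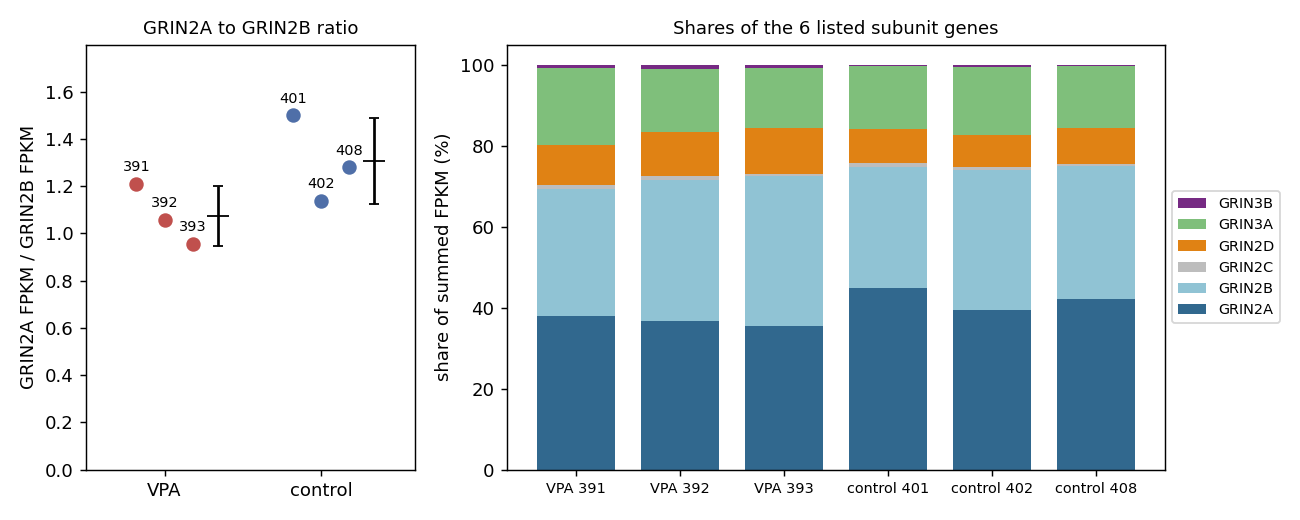
Left, the GRIN2A to GRIN2B ratio of FPKM by animal, VPA left of control, with mean and SD; right, the share of each of the 6 counted subunit genes in their summed FPKM, 1 bar per library. VPA 391, at 1.21, lies above control 402, at 1.14, so the ratios overlap, while the GRIN2A share is 35.4% to 38.0% in VPA and 39.4% to 44.9% in controls.

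Markers of glutamatergic neurons, which express GRIN2A, lay mostly in the same direction. Of the 11 glutamatergic neuron markers 10 had negative and 1 had positive log2 fold changes, with a median of -0.23, where the median of all genes tested was 0.0018. This list was chosen with earlier results of these data known, so its counts beside those of all genes are a description only. SV2B, a synaptic vesicle glycoprotein gene in that list, was the 1 called, at 680 ± 43.9 CPM in VPA and 866 ± 43.2 CPM in controls (SD, n = 3 each, edgeR adjusted p = 0.048), where edgeR called 0.0835% of all genes lower. It passed in 9 of 17 alternatives, and of the 6 runs that left out 1 library it passed only in that without control 401 (adjusted p from 0.042 to 0.16). At an unadjusted p under 0.05 in edgeR 8 of the 11 were lower, where 16.2% of all genes reached that level in either direction. In 7 of the 11 the groups did not overlap, against 21.4% of all genes, and DESeq2 called 4, all lower. CAMK2A, the most abundant of the list, had 2448 ± 140 CPM in VPA and 2442 ± 65.3 CPM in controls (edgeR adjusted p = 0.98). Per 1000 CPM of the list's sum, GRIN2A stood at 9.33, 9.01 and 10.2 CPM in VPA 391, 392 and 393 and at 11.5, 10.3 and 10.9 CPM in controls 401, 402 and 408. These groups did not overlap either, with control 402 just above VPA 393. CAMK2A made up 34.7% to 39.2% of the sum. The sum averaged 6466 CPM in VPA and 7010 CPM in controls, 7.75% lower. This scale therefore takes up only part of the shift in the list's median of -0.23. On that scale GRIN2B had 29.2 ± 4.95 CPM in VPA and 27.5 ± 2.38 CPM in controls. Fewer cells of a type and less RNA per cell cannot be told apart in bulk tissue.

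Glial markers lay the other way, in lists also chosen with earlier results of these data known. The 10 oligodendrocyte markers summed to 16457 to 18845 CPM in VPA and 12910 to 17188 CPM in controls, overlapping, with 10 of 10 log2 fold changes positive and a median of 0.34. In edgeR 0 were called and 7 were higher at an unadjusted p under 0.05, DESeq2 called 5, all higher, and in 6 the groups did not overlap. MBP, the myelin basic protein gene and the most abundant of them, had 8487 ± 842 CPM in VPA and 7232 ± 1127 CPM in controls (SD, n = 3 each, edgeR adjusted p = 0.31). The 9 astrocyte markers summed to 8243 to 9634 CPM in VPA and 7739 to 8443 CPM in controls, with 8 of 9 positive and a median of 0.19. In edgeR 0 were called and 6 were higher at an unadjusted p under 0.05, DESeq2 called 2, both higher, and in 4 the groups did not overlap. Over all genes edgeR called 0.362%, 16.2% had an unadjusted p under 0.05, DESeq2 called 3.64%, and 21.4% had groups that did not overlap. SLC1A2, a glutamate transporter gene and the most abundant of these, had 3487 ± 95.9 CPM in VPA and 3074 ± 51.7 CPM in controls (edgeR adjusted p = 0.11). Of the 8 precursor markers 7 were positive (median 0.21), of the 8 microglia markers 6 (median 0.090), and of the 10 interneuron markers 7 (median 0.095). Of all genes tested 49.5% were negative, and their median absolute log2 fold change was 0.11, above the microglia and interneuron medians. Striatal projection neuron markers had the largest median of these lists, 1.12, with 9 of 9 tested positive. In edgeR 0 were called and 7 were higher at an unadjusted p under 0.05, DESeq2 called 1, and in 6 the groups did not overlap. The sums of all 3 VPA libraries lay above those of all controls, by the most in VPA 393. No listed marker had 0 counts in every library. What part cell composition has in the GRIN2A values was not tested.

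**Figure D4:**
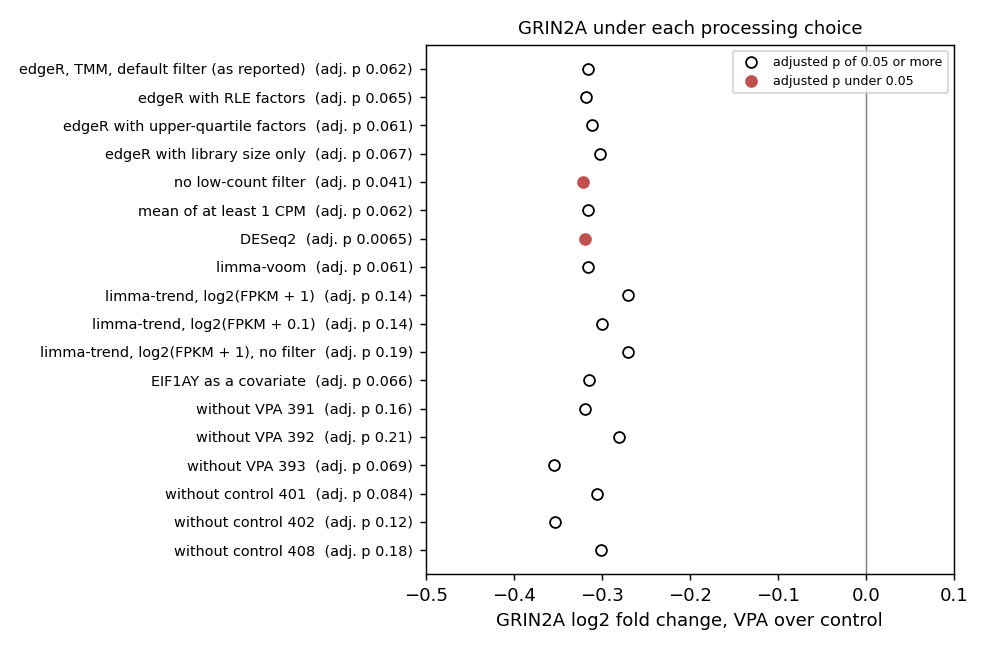
GRIN2A log2 fold change of VPA over control (horizontal axis) under each processing choice (rows), filled in red where the adjusted p was under 0.05. Estimates run from -0.35 to -0.27 on the negative side of 0 in every row, and DESeq2 and edgeR without a low-count filter are the choices past the threshold.

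By likeness of pattern, the genes nearest to GRIN2A over the 6 libraries were PFKL, CNTN3 and STXBP5L among 13768 genes compared. Likeness was the root mean square difference of log2 CPM after centring each gene on its own mean. It was 0.0207 for PFKL, a phosphofructokinase subunit gene of glycolysis, 0.0263 for CNTN3, a contactin adhesion gene, and 0.0275 for STXBP5L, a syntaxin-binding protein gene, where the median gene stood at 0.206. PFKL had 66.6, 63.0 and 68.7 CPM in VPA 391, 392 and 393 and 82.4, 77.4 and 81.2 CPM in controls 401, 402 and 408. Nearest to GRIN2B were SPOCK3, a testican proteoglycan gene, at 0.0447, CNNM2, a magnesium transport gene, at 0.0501 and SULT1A3, a sulfotransferase gene, at 0.0502. SULT1A3 has near-identical relatives in other species, so its counts may be shared. The 6 libraries are few points for so many genes, and the likeness is given as a description only.

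Genes that act with NMDA receptors were listed by role with earlier results of these data known, 47 in all, of which 45 were tested. They had a median log2 fold change of -0.05, with 11 positive and 34 negative, while 49.5% of all genes tested were negative. In edgeR 1 was called higher, where 0.278% of all genes tested were, and 0 lower, where 0.0835% were. At an unadjusted p under 0.05 there were 3 higher and 8 lower, together 11 of 45, where 16.2% of all genes reached that level. DESeq2 called 3, 1 higher and 2 lower, where it called 3.64% of all genes to which it gave an adjusted p. In 10 of the 45 the groups did not overlap, near the background of 21.4%.

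The called partner gene supplies the co-agonist side. PHGDH, the first enzyme of serine synthesis, from which the co-agonist D-serine is made, rose to 106 ± 4.15 CPM in VPA, against 85.0 ± 3.93 CPM in controls (SD, n = 3 each). By animal it had 107, 102 and 110 CPM in VPA 391, 392 and 393 and 85.3, 81.0 and 88.8 CPM in controls 401, 402 and 408, with no overlap. Its log2 fold change was 0.32 ± 0.057 (SE, edgeR adjusted p = 0.048), and it passed in 4 of 17 alternatives. The call was lost in each of 6 runs that left out 1 library (adjusted p from 0.066 to 0.14). PHGDH is made mainly by astrocytes, whose marker sums are given above, and the part of astrocyte content in the PHGDH values was not tested. Of the 5 tested genes of co-agonist supply and clearance 4 had positive values, with a median of 0.22. In 4 of the 5 the groups did not overlap, where 21.4% of all genes tested had such groups. Supply and clearance are joined in this role, and co-agonist levels were not measured. SRR, the serine racemase gene that makes D-serine, was the negative one, at -0.13 ± 0.062 (SE, edgeR adjusted p = 0.35), and its groups did not overlap. DAO, which breaks D-serine down, had too few counts to be tested.

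Among the other roles edgeR called 0 genes and DESeq2 called 2, both lower and both in the kinase and phosphatase role, and the genes named first are those with the lowest p of their role. Of the 5 scaffold genes 4 were negative, and DLG3, which encodes the postsynaptic scaffold SAP102, had 148 ± 7.39 CPM in VPA and 163 ± 3.04 CPM in controls (SD, n = 3 each, edgeR adjusted p = 0.20). For DLG4, which encodes PSD-95, the log2 fold change was 0.02 ± 0.046 (SE, adjusted p = 0.85). Kinase and phosphatase genes had 12 of 14 negative values and a median of -0.08. Of these PRKCB, a protein kinase C gene, had 777, 741 and 819 CPM in VPA 391, 392 and 393 and 938, 892 and 923 CPM in controls 401, 402 and 408 (edgeR adjusted p = 0.073, DESeq2 adjusted p = 0.0013). The groups did not overlap in PRKCB.

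Of 7 tested transport genes 6 were negative, and APBA1, which encodes the Mint1 adaptor of NMDA receptor transport, had 235 ± 11.0 CPM in VPA and 255 ± 7.65 CPM in controls (SD, n = 3 each, edgeR adjusted p = 0.27). KIF17, a kinesin gene of that list, is not analysed here. Of 6 membrane and cytoskeletal partners 5 were negative, and ACTN2, an actinin gene, had 62.4 ± 11.6 CPM in VPA and 71.4 ± 5.99 CPM in controls (SD, n = 3 each, edgeR adjusted p = 0.44). Of 8 genes of calcium signalling downstream 6 were negative, with a median of -0.02.

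**Figure D5:**
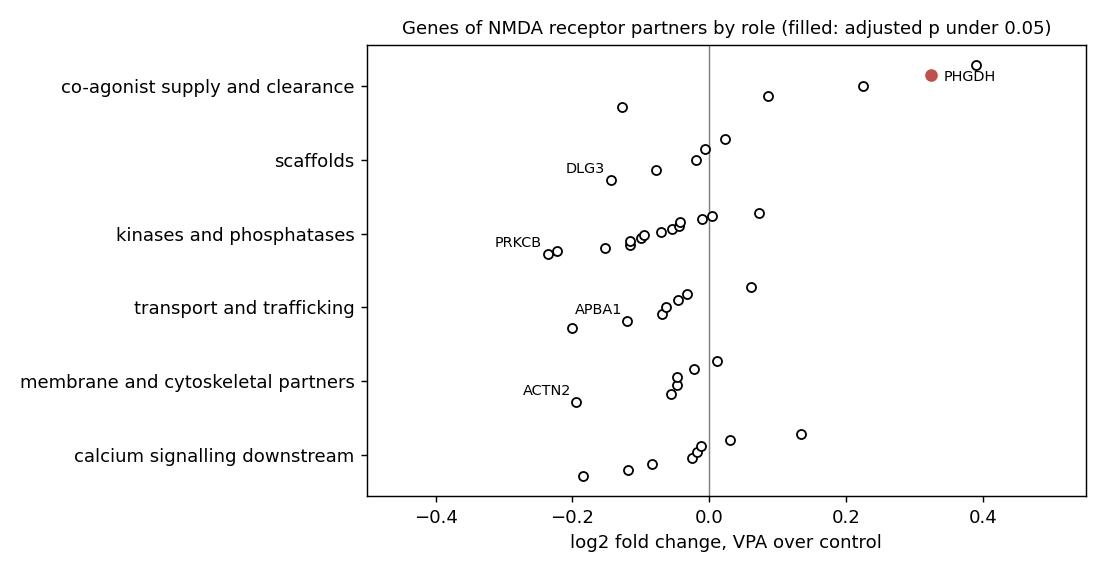
Log2 fold change of VPA over control (horizontal axis) for 45 genes that act with NMDA receptors, 1 point per gene, in rows by role, with the gene of lowest p named in each row but the last. PHGDH, at 0.32, is the filled point past edgeR's adjusted p of 0.05, and 34 of the 45 lie below 0.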

How the data were processed

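Total RNA was extracted with TRIzol and sequenced from VAHTS Universal V6 libraries, per the labels' protocols. For each library the authors deposited a file of raw counts and a file of FPKM, per the file headers and names. Strand setting, aligner, counter, build and annotation were not given in the sources used here, so no coordinates are printed and reads of overlapping or near-identical genes cannot be separated. FPKM equalled count over library total over a fixed gene length in all 17201 genes (relative tolerance 0.001). All 7 member names are in the RefSeq table of Sscrofa11.1, which served only for names; 24 names had turned into dates and stayed in library sizes.

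Counts were tested in R 4.3.3 with edgeR 4.0.16 (filterByExpr, TMM, glmQLFit, glmQLFTest, no covariate, Benjamini-Hochberg over 14373 genes, threshold 0.05), 3 against 3 animals. SE came from the F statistic, and 95% intervals from it and the moderated degrees of freedom. Intervals and p-values of edgeR rest on the spread between these animals, moderated by that of all genes tested. The moderated degrees of freedom were 10.5, where 4 were residual. Exposure fell in gestation and litters are not given, so the spread between dams is not measured. The functions were tested on simulated counts. Alternatives were other scalings and filters, DESeq2 1.42.0, limma 3.58.1 (voom on counts, and trend on log2 FPKM with a pseudocount of 1 or 0.1 and a mean of at least 0.5 FPKM or no filter), EIF1AY as a covariate, and each library left out. All pairs of libraries differed by more than sampling noise (chi-square per degree of freedom 5.74 to 12.8). The members and lists were chosen with earlier results of these data known. Named were all members, the called or else lowest-p partner gene of each role (1 is not reported here), the called and most abundant markers of lists that are discussed, and the 3 genes nearest in pattern to GRIN2A and to GRIN2B with a mean of at least 1 CPM. DLG4, SRR and DAO were named outside that rule, after their values were seen.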

Additional observations from a re-analysis of the deposited data

How the results depend on the processing

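GRIN2A kept a negative log2 fold change in all 17 alternatives, from -0.35 to -0.27, and passed the threshold in 2, at -0.32 with DESeq2 and -0.32 in edgeR without the low-count filter; leaving out 1 library gave -0.35 to -0.28 (adjusted p from 0.069 to 0.21). GRIN2D and GRIN3A kept their direction and stayed short of the threshold in all 17, at 0.11 to 0.31 and -0.17 to -0.0074. Leaving out 1 library moved GRIN2B between -0.16 and 0.051 and GRIN2C between -0.087 and 0.25, with turns of direction in GRIN2B without VPA 391, VPA 392 or control 402 and in GRIN2C without VPA 391 or control 408. The log2 ratio difference of GRIN2A to GRIN2B ran from -0.37 to -0.18 with 1 library left out (exact p from 0.2 to 0.4) and from -0.29 to -0.25 under the other 3 alternatives. With 1 library left out, 0.2 is the smallest exact p that 2 against 3 allows.

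Subunit genes called numbered 1 with DESeq2 and without the filter, and 0 in each run that left out 1 library. Partner genes called numbered 3 with DESeq2, and 0 with RLE factors, a mean of at least 1 CPM, limma-voom, the 3 limma-trend runs on FPKM, EIF1AY as a covariate, and each library left out. Over all genes the 52 calls became 444 with DESeq2, 141 without the filter, 30 with limma-voom, 2 with limma-trend at either pseudocount and 1 without its filter, and 0 to 66 with 1 library left out (0 without VPA 391 or VPA 392, 1 without VPA 393, 5 without control 402, 2 without control 408). The cause was not tested. No paired analysis was possible because the animal numbers are not shared between groups. Depth limits GRIN2C and GRIN3B, at 14 reads or fewer per library.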
